A study of Mus musculus with 12 samples.

Results

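The Myc, Max and Mxd network was followed across 4 groups of mouse bone marrow-derived macrophages. It comprises 10 genes, Myc, Mycl, Max, Mlx, Mxd1, Mxd3, Mxd4, Mxi1, Mnt and Mga, out of 22180 gene symbols on the array. Its members were taken by name: a row of the deposited values was used if the platform annotation gave it exactly that symbol. This found 11 rows. Mxi1 had 2 of them, and the row with the higher mean over all 12 arrays (a log2 intensity of 5.84, against 4.55 for the other) was used. The members were thus chosen by name, and the Mxi1 row was selected on that mean, the only measured value in the rule, which disregards the groups. All 10 genes passed the filter on dim genes, which kept 14079 genes above the 40th percentile of their array on at least 3 arrays. Mycl passed on 6 of 12 arrays, 5 of which carried R848-treated cells, so it was kept largely through the condition in which it was higher.

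The groups were Rasgef1b knockout cells with R848, knockout cells with saline, wild-type cells with R848 and wild-type cells with saline, each with 3 arrays. The knockout carries a floxed Rasgef1b gene (Rasgef1b fl/fl) with the vav-icre transgene, a Cre recombinase driven by the Vav promoter and active throughout blood-forming cells. R848 is a small-molecule agonist of the endosomal RNA receptors TLR7 and TLR8 and was given for 4 h, while no time is given for saline. Macrophages of all groups were grown from marrow in medium conditioned by L929 cells, a source of the macrophage growth factor CSF1. No group with Cre alone is analysed here, so the presence of Cre and loss of Rasgef1b cannot be told apart, and the labels leave unstated if the replicates are different animals or cultures. The p-values therefore rest on the variation among these 12 arrays, part or all of which may be technical.

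Proteins of this network are basic helix-loop-helix leucine zipper transcription factors that bind DNA as dimers, mostly at the E-box CACGTG. Max is the shared partner. Dimers of Myc or Mycl with Max activate genes for ribosome assembly, nucleotide and polyamine synthesis and cell growth, whereas Mxd1, Mxd3, Mxd4, Mxi1 and Mnt pair with Max at the same sites and recruit SIN3 and histone deacetylases to repress them. Mga joins Max to a Polycomb-type repressor complex, and Mlx is a Max-like partner of the glucose-responsive Mondo proteins and of some Mxd proteins and Mnt. In macrophages Myc is a target of CSF1 signalling, and Mxd genes are known for their expression in differentiating and resting cells.

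The promoters of several network genes are shown because they carry the letters that the network's own proteins bind. RefSeq start sites (GRCm38.p6) gave windows of 250 bases before to 50 bases after the start for 9 of the 10 genes. Myc had no window here and was not searched. CACGTG, which reads the same on both strands, was present in 4 of these 9 genes, Mxd4, Mnt, Max and Mlx, against 8.09% of the 27025 genes with a window. It began 219 bases before the start of Mxd4, 123 bases before that of Mnt and 40 bases before that of Mlx, and in Max it lay across the start site, beginning 3 bases before it. The bases before the start of these genes follow on their own strand, 5′ to 3′, with the E-box in capitals, and the Max sequence runs on to the end of its E-box. Mxd1, the member with the largest increase under R848, is given beside them as a promoter without CACGTG in its window. The stretches lie at chr5:34187711-34187960 (minus strand), chr11:74830674-74830923 (plus), chr12:76962246-76962498 (minus), chr11:101087040-101087289 (plus) and chr6:86669160-86669409 (minus). A match of letters is a description of the sequence and not a measured binding site.
Mxd4: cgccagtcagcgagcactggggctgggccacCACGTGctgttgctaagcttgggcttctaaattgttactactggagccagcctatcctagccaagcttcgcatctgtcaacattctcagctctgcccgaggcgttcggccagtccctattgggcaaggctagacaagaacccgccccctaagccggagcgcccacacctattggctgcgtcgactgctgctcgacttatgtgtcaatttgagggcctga
Mnt: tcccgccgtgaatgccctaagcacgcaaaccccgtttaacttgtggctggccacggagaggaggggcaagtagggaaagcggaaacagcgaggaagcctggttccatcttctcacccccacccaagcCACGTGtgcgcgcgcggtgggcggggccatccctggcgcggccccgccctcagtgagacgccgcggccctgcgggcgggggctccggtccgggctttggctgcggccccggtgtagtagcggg
Max: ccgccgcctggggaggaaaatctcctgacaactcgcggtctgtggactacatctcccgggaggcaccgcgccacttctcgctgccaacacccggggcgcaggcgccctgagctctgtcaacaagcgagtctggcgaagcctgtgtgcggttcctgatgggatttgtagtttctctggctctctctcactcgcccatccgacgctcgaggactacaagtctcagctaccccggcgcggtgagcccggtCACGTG
Mlx: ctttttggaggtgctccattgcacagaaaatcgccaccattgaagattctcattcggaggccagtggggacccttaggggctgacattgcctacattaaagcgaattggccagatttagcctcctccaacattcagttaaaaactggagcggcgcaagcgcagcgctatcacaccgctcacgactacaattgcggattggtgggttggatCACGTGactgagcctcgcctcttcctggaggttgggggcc
Mxd1: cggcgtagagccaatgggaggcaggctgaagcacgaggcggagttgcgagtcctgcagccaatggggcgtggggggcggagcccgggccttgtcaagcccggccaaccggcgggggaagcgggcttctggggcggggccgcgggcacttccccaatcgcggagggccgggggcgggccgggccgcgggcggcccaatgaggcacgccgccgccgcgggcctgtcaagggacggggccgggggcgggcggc

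Values are RMA log2 intensities, so that a difference of 1 is a 2-fold difference. Pairs of arrays within a group correlated at 0.991 to 0.996, and pairs from different groups at 0.916 to 0.995. The floxed gene Rasgef1b read 9.45, 8.60 and 9.36 in knockout cells with R848, against 9.84, 9.84 and 9.69 in wild-type cells with R848, and 8.63, 7.88 and 8.72 in knockout cells with saline, against 9.03, 9.19 and 9.14 in wild-type cells with saline. Every knockout array lay below every wild-type array of its treatment. Its difference averaged over treatments was -0.68 ± 0.15 (SE, limma adjusted p = 0.036), and whether the probes lie in the deleted part is not given in the sources used here. Its call was lost when the spread was fitted robustly with a trend in intensity (adjusted p = 0.0643), when arrays were fitted as correlated pairs (0.054) and when arrays were left out, which held for wild-type saline replicates 2 and 3, wild-type R848 replicates 1, 2 and 3, knockout saline replicate 2 and knockout R848 replicate 2, each alone (0.063 to 0.0981). All 9 macrophage markers on the array exceeded the dim limit on all 12 arrays. Of markers of other cells, 0 of 4 for T cells, 1 of 4 for B cells, 1 of 6 for neutrophils and their precursors, 4 of 5 for dendritic cells, 3 of 5 for fibroblasts, 1 of 2 for erythroid cells and 1 of 4 for mast cells exceeded it on at least 3 arrays, and 0 markers of these lists, macrophage markers included, passed between genotypes averaged over treatments. In such bulk RNA, fewer cells of a type and less RNA per cell cannot be told apart.

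R848 moved repressors of the network in both directions. Mxd1 rose while Mxd4, Mxi1, Mnt and Mga fell, Max rose, and the changes of Myc, Mxd3 and Mlx did not pass the threshold in either genotype. In knockout cells 6 of 10 members passed (2 higher and 4 lower), where 41.6% of all tested genes did, 15.6% higher and 26% lower. In wild-type cells 7 of 10 passed (3 higher and 4 lower), where 38.3% of all tested genes did, 14.6% higher and 23.6% lower. The additional member was Mycl, which the filter kept largely through R848 arrays. The R848 change had the same sign in both genotypes for 10 of 10 members, which was true of 81.4% of all tested genes. Of all 10 members 6, those called in knockout cells, were called the same way in both genotypes, as were 33.3% of all 14079 tested genes. R848 and saline arrays did not overlap for 6 members in knockout cells, where this held for 48.8% of all genes, and for 6 in wild-type cells, where it held for 48.1%. These last shares lie near the background. Of the 9 macrophage markers 7 also passed for R848 averaged over genotypes, where 50% of all tested genes did. Cd14 (0.67), Spi1 (0.65) and Adgre1 (0.27) were higher, and Mertk (-1.85), Csf1r (-0.40), Fcgr1 (-0.26) and Cd68 (-0.16) were lower. Of the markers of other cells, Elane of neutrophil precursors (-0.14) and Cd209a of dendritic cells (-0.23) were lower. The part of these shifts in the network's changes was not tested.

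**Figure D1:**
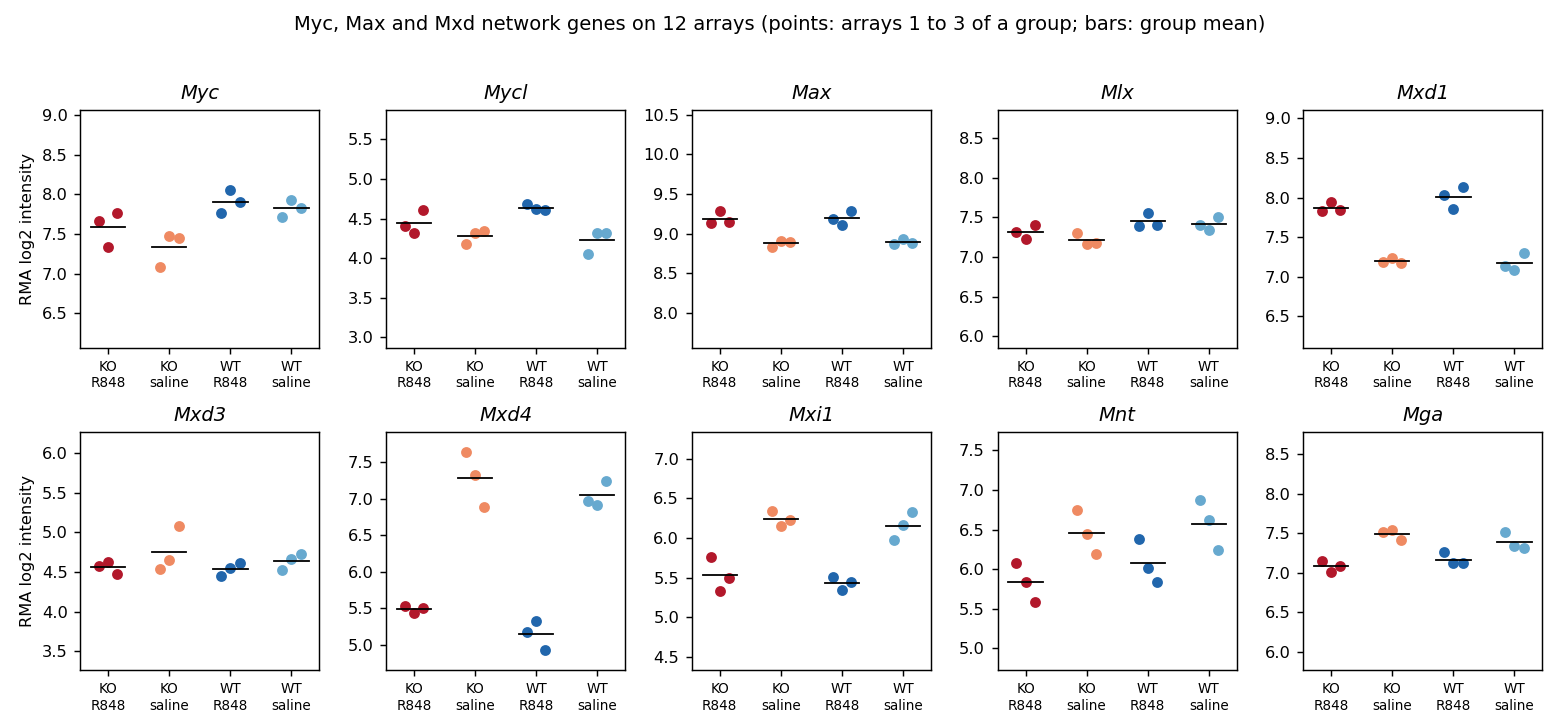
RMA log2 intensity of the 10 network genes on the 12 arrays, with 1 point per array and a bar at the mean of each group of 3 (KO, knockout; WT, wild type). Every vertical axis spans at least 3 log2 units, in which the drop of Mxd4 with R848, to 5.49 in knockout and 5.15 in wild-type cells, is the widest gap.

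Mxd4, a Max-binding repressor associated with resting and differentiated cells, had the largest change. It read 5.53, 5.44 and 5.50 in knockout cells with R848, against 7.64, 7.32 and 6.89 in knockout cells with saline. In wild-type cells it read 5.18, 5.33 and 4.93 with R848, against 6.97, 6.92 and 7.25 with saline. R848 arrays thus lay more than 1 log2 unit below all saline arrays in both genotypes. The decrease was -1.79 ± 0.15 (SE, adjusted p = 2.31e-07) in knockout and -1.90 ± 0.15 (adjusted p = 1.38e-07) in wild-type cells, a 3.47-fold and a 3.73-fold lower level. Averaged over genotypes, 277 of the 14079 tested genes, Mxd4 included, changed by at least as much in either direction.

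Mxi1, like Mxd4 a SIN3-recruiting partner of Max, fell as well. Its values were 5.76, 5.33 and 5.49 in knockout cells with R848, against 6.34, 6.15 and 6.23 with saline. Wild-type cells had 5.51, 5.34 and 5.44 with R848, against 5.97, 6.16 and 6.33 with saline. Groups did not overlap in either genotype, and the change was -0.71 ± 0.11 (SE, adjusted p = 0.000108) in knockout and -0.72 ± 0.11 (adjusted p = 0.000103) in wild-type cells. The second, dimmer row of Mxi1 differed in knockout cells, where its change was 0.037 ± 0.10 (SE, adjusted p = 0.803, in a fit of all rows) and -0.28 ± 0.10 (adjusted p = 0.033) in wild-type cells. Mxi1 has 3 annotated start windows in RefSeq, and which transcripts each row reads is not known here, and the decrease is that of the brighter row.

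Mxd1, the founding Mxd repressor, rose. It read 7.83, 7.95 and 7.84 in knockout cells with R848, against 7.19, 7.24 and 7.17 with saline. In wild-type cells the values were 8.03, 7.85 and 8.13 with R848, against 7.14, 7.08 and 7.30 with saline. No R848 array overlapped a saline array. The increase was 0.67 ± 0.09 (SE, adjusted p = 1.33e-05) in knockout and 0.83 ± 0.09 (adjusted p = 1.69e-06) in wild-type cells, or 1.59-fold and 1.78-fold. Mxd3, the Mxd member that is expressed in S phase in proliferating cells, stayed dim, between 4.45 and 5.08 on all arrays. It averaged 4.56 ± 0.07 (SD, n = 3) with R848 and 4.76 ± 0.29 with saline in knockout cells, and 4.54 ± 0.08 with R848 and 4.64 ± 0.10 with saline in wild-type cells. Its change, -0.20 (95% interval -0.44 to 0.05) in knockout and -0.10 (-0.35 to 0.14) in wild-type cells, did not pass.

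Mnt, the broadly expressed Max partner that opposes Myc, fell as well. Knockout cells had 6.08, 5.84 and 5.59 with R848, against 6.75, 6.44 and 6.19 with saline. Wild-type cells had 6.38, 6.01 and 5.84 with R848, against 6.87, 6.62 and 6.24 with saline, and here the groups overlapped. The change was -0.62 ± 0.18 (SE, adjusted p = 0.0123) in knockout and -0.50 ± 0.18 (adjusted p = 0.0423) in wild-type cells. The wild-type call was lost when the spread was fitted robustly with a trend in intensity (adjusted p = 0.0541), with no filter (0.0628), after cyclic loess (0.0802), and without wild-type saline replicate 1 or 2, wild-type R848 replicate 2 or 3, knockout saline replicate 2 or knockout R848 replicate 2 (0.0523 to 0.177). The knockout call ended without knockout saline replicate 1 (0.0664) or knockout R848 replicate 3 (0.062). In every group the array numbered 1 had the highest and that numbered 3 the lowest Mnt value. With the replicate number as a block over all groups, the limma adjusted p was 6.89e-06 in knockout and 5.49e-05 in wild-type cells. That block ties same-numbered arrays of every group, whereas the numbers were taken to pair the knockout arrays alone.

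Mga, the T-box protein that bridges Max to Polycomb, read 7.15, 7.01 and 7.09 in knockout cells with R848, against 7.51, 7.54 and 7.41 with saline. In wild-type cells it read 7.26, 7.12 and 7.12 with R848, against 7.52, 7.34 and 7.31 with saline. All R848 arrays lay below all saline arrays of their genotype. It fell by 0.40 on the log2 scale in knockout cells (SE 0.08, adjusted p = 0.000794) and by 0.22 in wild-type cells (SE 0.08, adjusted p = 0.0386). The wild-type call ended after cyclic loess (adjusted p = 0.098), in a fit of only the arrays compared (0.0619), and without wild-type saline replicate 1 or 2 or wild-type R848 replicate 2 or 3 (0.053 to 0.167).

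Max, the obligate partner, rose by a small and even amount. It read 9.14, 9.28 and 9.15 in knockout cells with R848, against 8.83, 8.91 and 8.89 with saline, and 9.18, 9.11 and 9.29 in wild-type cells with R848, against 8.87, 8.93 and 8.88 with saline. Groups did not overlap, and the increase was 0.31 ± 0.07 (SE, adjusted p = 0.00263) in knockout and 0.30 ± 0.07 (adjusted p = 0.0039) in wild-type cells. Mlx lay between 7.16 and 7.55 on all 12 arrays. Its change was 0.10 (95% interval -0.07 to 0.27) in knockout and 0.03 (-0.14 to 0.20) in wild-type cells, neither past the threshold.

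Of the activators, Myc read 7.67, 7.34 and 7.77 in knockout cells with R848, against 7.08, 7.47 and 7.45 with saline, and 7.77, 8.05 and 7.91 in wild-type cells with R848, against 7.71, 7.93 and 7.83 with saline. R848 and saline arrays overlapped in both genotypes. The change was 0.26 (95% interval -0.01 to 0.53, adjusted p = 0.118) in knockout and 0.09 (-0.18 to 0.36, adjusted p = 0.65) in wild-type cells, so at 4 h an increase of Myc mRNA beyond 0.53 lay outside both intervals. In knockout cells the change passed after cyclic loess (0.33, adjusted p = 0.0418) and without knockout R848 replicate 2 (0.39, adjusted p = 0.0238). Mycl, a Myc paralogue known in mice from dendritic cells, was dim, with 4.41, 4.32 and 4.61 in knockout cells with R848, against 4.18, 4.32 and 4.34 with saline. In wild-type cells it read 4.69, 4.62 and 4.61 with R848, against 4.05, 4.32 and 4.32 with saline. The difference was 0.17 ± 0.09 (SE, adjusted p = 0.181) in knockout and 0.41 ± 0.09 (adjusted p = 0.00272) in wild-type cells. All 3 wild-type R848 arrays exceeded the dim limit, which lay between 4.31 and 4.35, against 1 of 3 with saline, and differences this close to background are compressed.

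**Figure D2:**
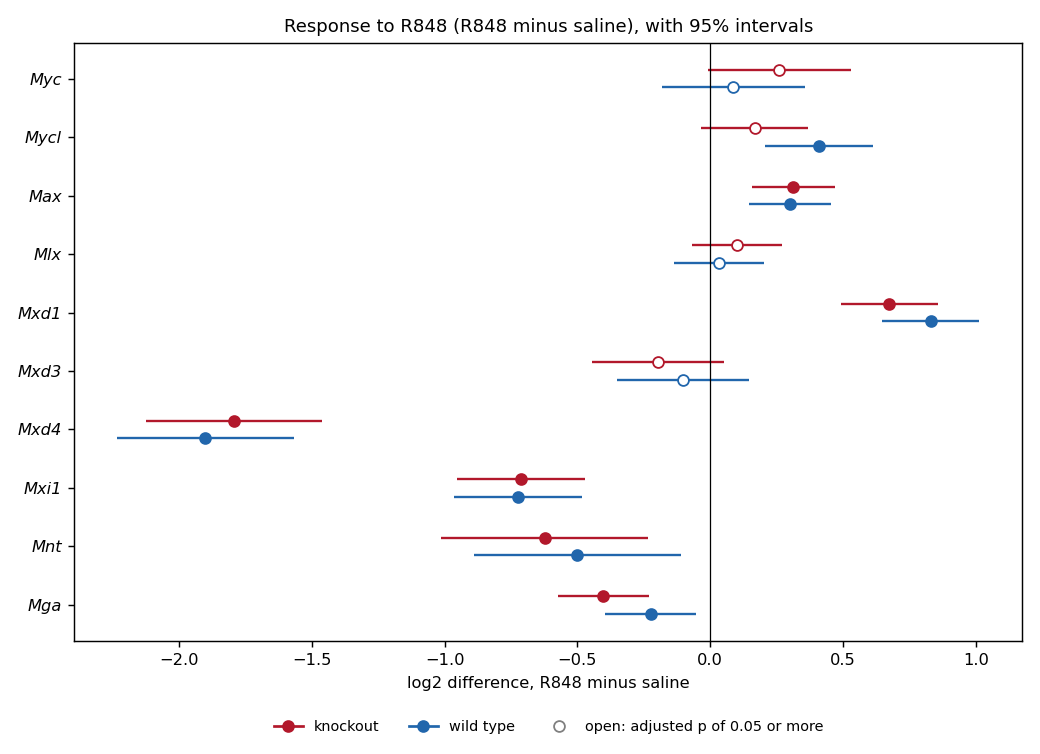
Log2 difference between R848 and saline for each network gene in knockout (upper of each pair) and wild-type cells (lower), with 95% intervals from limma; filled points passed an adjusted p of 0.05. Mxd1 lies at 0.67 and 0.83 and Mxd4 at -1.79 and -1.90, on opposite sides of 0, while the intervals of Myc and Mlx include 0 in both genotypes.

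Averaged over genotypes, 7 of 10 members passed for R848 (3 higher and 4 lower), where 50% of all tested genes did. The median absolute change was 0.31 for members and 0.17 for all tested genes. Mxd4 (-1.85), Mxi1 (-0.72), Mnt (-0.56) and Mga (-0.31) were lower. Mxd1 (0.75), Max (0.31) and Mycl (0.29, kept by the filter largely through R848 arrays) were higher. These 7 directions were the same under median centring of the arrays and under cyclic loess, where the median change of all genes was -0.04 and 0.00.

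Whether loss of Rasgef1b alters the network was asked by setting knockout against wild-type cells. Myc was the member that passed, lower in knockout cells averaged over treatments, in the main model, which treats all arrays as independent. With same-numbered arrays of a genotype treated as correlated pairs, Myc did not pass (limma adjusted p = 0.0717). With R848 the 3 knockout arrays (7.67, 7.34 and 7.77) and the 3 wild-type arrays (7.77, 8.05 and 7.91) touched at 7.77. With saline all knockout arrays (7.08, 7.47 and 7.45) lay below all wild-type arrays (7.71, 7.93 and 7.83). The difference was -0.32 ± 0.13 (SE, adjusted p = 0.475) under R848 and -0.49 ± 0.13 (adjusted p = 0.115) in saline, neither past the threshold.

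Averaged over treatments, Myc differed by -0.40 ± 0.09 (SE, adjusted p = 0.036), a 1.32-fold lower level in knockout cells. Of the 10 members 1 passed, Myc, where 1.78% of all tested genes did (0.774% higher and 1.01% lower), and 123 of 14079 genes, Myc included, differed by at least as much. Over the alternative fits, leaving out each array included, the difference lay between -0.45 and -0.34. The call ended with same-numbered arrays of a genotype treated as correlated pairs (adjusted p = 0.0717) and without wild-type saline replicate 2 or 3, wild-type R848 replicate 2 or 3, knockout saline replicate 1 or 2 or knockout R848 replicate 2 (0.0538 to 0.107). The share of higher genes among all genes called in this comparison was 43.4%. It was 29.8% when arrays were centred on their medians and 57.5% with cyclic loess, while Myc differed by -0.42 and -0.36 under these scalings.

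The other members showed no genotype difference past the threshold. Within each treatment 0 of 10 members passed, where 0.135% of all genes did under R848 and 0.334% in saline (0.142% higher and 0.192% lower), and 2 of 10 had an unadjusted limma p under 0.05 in each, Myc and Mxd4 under R848 and Myc and Mlx in saline. Such a p was found for 8.74% of all genes under R848 and 12.6% in saline. The share of higher genes among those called under R848 was 42.1%, against 57.7% after cyclic loess. Knockout and wild-type arrays did not overlap for 1 member under R848 (Mxd4), where this held for 13.8% of all genes, and for 2 members in saline (Myc and Mlx), where it held for 16.1%. Mxd4 averaged 5.49 ± 0.05 (SD, n = 3) in knockout and 5.15 ± 0.20 in wild-type cells with R848, and 7.28 ± 0.38 in knockout and 7.05 ± 0.18 in wild-type cells with saline. Its averaged difference of 0.29 (95% interval 0.06 to 0.52) had an adjusted p of 0.2, and of 0.0454 without knockout saline replicate 3. Mlx averaged 7.31 ± 0.09 in knockout and 7.45 ± 0.09 in wild-type cells with R848, and 7.21 ± 0.08 in knockout and 7.42 ± 0.09 in wild-type cells with saline, a difference of -0.17 (95% interval -0.29 to -0.05, adjusted p = 0.145). For Max the averaged difference was -0.01 (95% interval -0.12 to 0.10) and for Mxd1 it was -0.05 (-0.18 to 0.08).

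**Figure D3:**
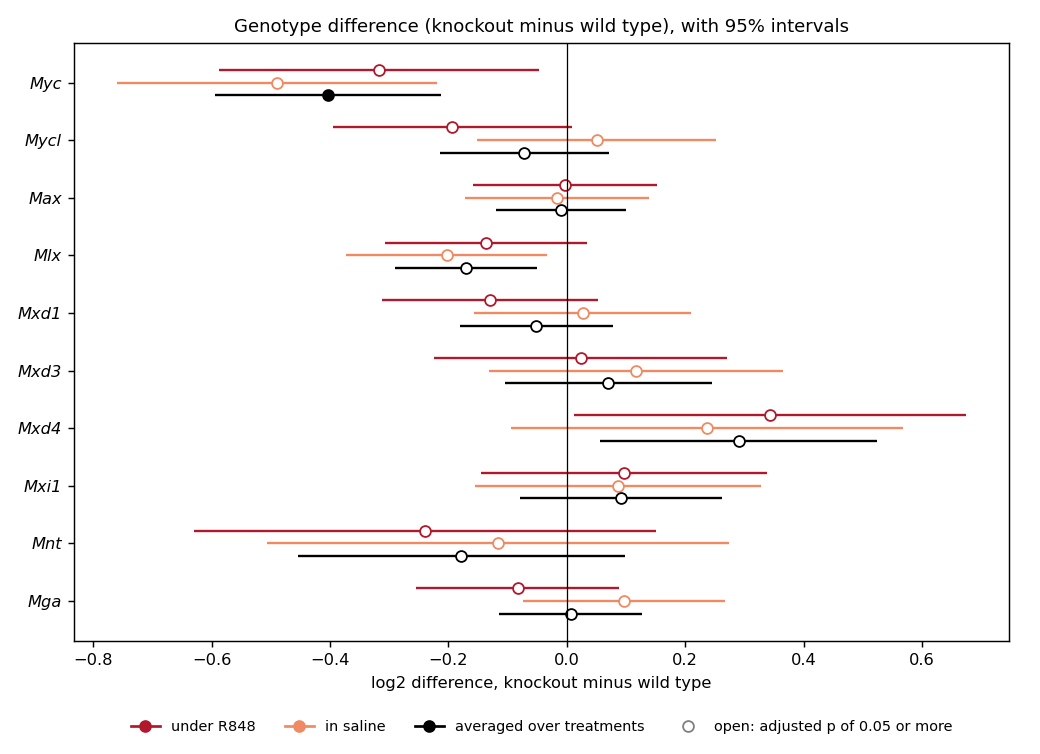
Log2 difference between knockout and wild-type cells for each network gene under R848 (upper), in saline (middle) and averaged over treatments (lower), with 95% intervals from limma; filled points passed an adjusted p of 0.05. Myc averaged over treatments, at -0.40, is the single filled point, and the intervals of Max are centred near 0.

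The interaction, which asks whether the R848 response differs between knockout and wild-type cells, passed for 0 of 10 members, with 0 at an unadjusted limma p under 0.05, where 0.0142% of all tested genes passed. The estimate was -0.24 (95% interval -0.53 to 0.04) for Mycl, -0.18 (-0.42 to 0.06) for Mga, -0.16 (-0.42 to 0.10) for Mxd1, 0.17 (-0.21 to 0.56) for Myc and 0.11 (-0.36 to 0.58) for Mxd4. The Mycl call in wild-type cells alone is therefore not shown to differ between genotypes.

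Genes known to be activated by Myc were read from a list of 60, of which 55 were tested. This list, like the others, was chosen with earlier results of these data known. Its genes may vary together from array to array, so counts of its members are not counts of independent evidence. The comparisons with all tested genes describe the list, and a role of Myc in them was not tested. Averaged over treatments, 11 of the 55 were lower in knockout cells and 0 higher, where 1.01% of all tested genes were lower. With same-numbered arrays of a genotype treated as correlated pairs, 4 were lower. The 11 serve ribosome assembly (Nop58, Nop56, Utp20 and Imp4), polyamine and pyrimidine synthesis (Srm and Cad), lactate handling (Slc16a1 and Ldha), protein folding in mitochondria (Hspd1), nuclear import (Ipo4) and translation (Eif4e), and were named after their values were seen, apart from Nop58 and Srm. Nop58, a core protein of the snoRNP that modifies ribosomal RNA, differed most, by -0.50 ± 0.07 (SE, adjusted p = 0.00235). Srm, spermidine synthase, differed by -0.43 ± 0.09 (adjusted p = 0.0274), and Ldha, lactate dehydrogenase A, least of the 11, by -0.21 ± 0.05 (adjusted p = 0.0395). In all, 52 of 55 members had a negative difference, as had 57.3% of all tested genes, and the median was -0.20, against -0.02 over all genes. Within treatments, 0 of 55 passed under R848, and in saline 3 were lower (Nop58, Slc16a1 and Hspd1) and 0 higher, where 0.192% of all genes were lower. That count of 3 was 0 in a fit of only the arrays compared. Dropping knockout saline replicate 2 gave 1, dropping wild-type saline replicate 1 gave 1, and dropping wild-type saline replicate 3 gave 0.

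The count of 11 rested on many arrays. Leaving out knockout R848 replicate 2 gave 3, and leaving out knockout saline replicate 1 or 2 gave 5 or 4. For wild-type R848 arrays, dropping replicate 2 gave 3, and dropping replicate 1 or 3 gave 6. For wild-type saline arrays, dropping replicate 1, 2 or 3 gave 7, 4 or 6. In each of these fits 0 members were higher. The mean of the 55 genes was 7.12, 7.06 and 7.19 in knockout cells with R848, against 7.30, 7.35 and 7.29 in wild-type cells with R848, and 6.84, 6.87 and 6.97 in knockout cells with saline, against 7.10, 7.07 and 7.09 in wild-type cells with saline. Knockout arrays lay below wild-type arrays within each treatment.

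**Figure D4:**
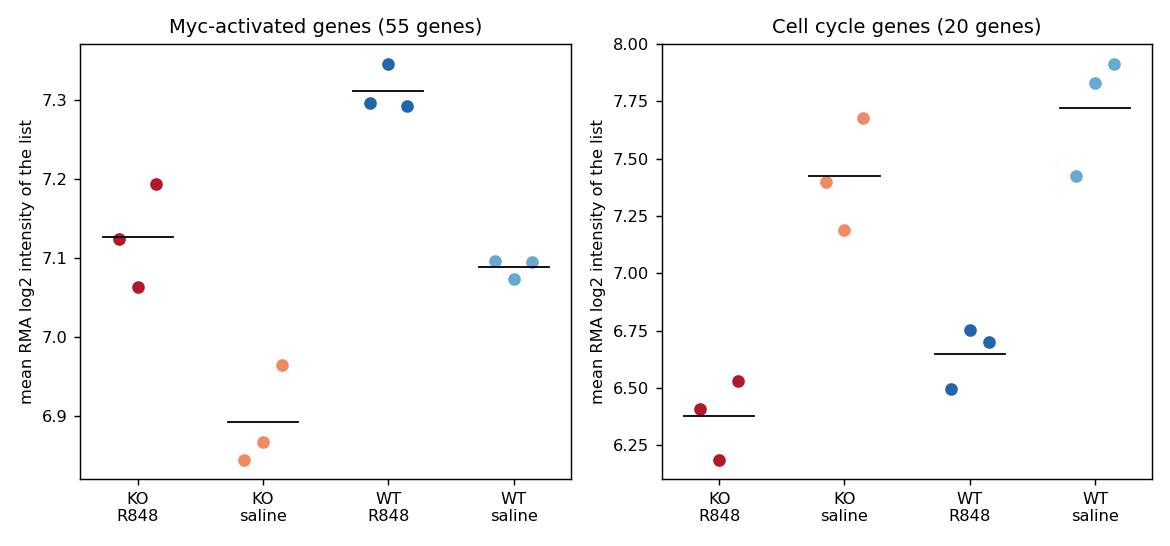
Mean RMA log2 intensity of the tested Myc-activated genes (left, 55 genes) and cell cycle genes (right, 20 genes) on each of the 12 arrays, with a bar at the mean of each group of 3 (KO, knockout; WT, wild type). The Myc-activated list is higher with R848 than with saline within each genotype and lower in knockout than in wild-type cells within each treatment, while the cell cycle list is lower with R848 and its knockout and wild-type points overlap within each treatment.

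The same list was also read under R848. Averaged over genotypes 28 of 55 were higher and 8 lower, where 19.3% of all tested genes were higher and 30.7% lower, with a median of 0.21, against -0.02 over all genes. Rcl1, a ribosome assembly factor (1.64), the cyclin Ccnd2 (1.44), the polyamine enzyme Odc1 (1.28) and the hexokinase Hk2 (1.18) led. Nop58 rose with R848 (0.76, limma adjusted p = 1.29e-07). Of the 11 genes that were lower in knockout cells, 6 were higher with R848, as were 50.9% of the tested list. The count of 6 is thus near the share of the list.

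**Figure D5:**
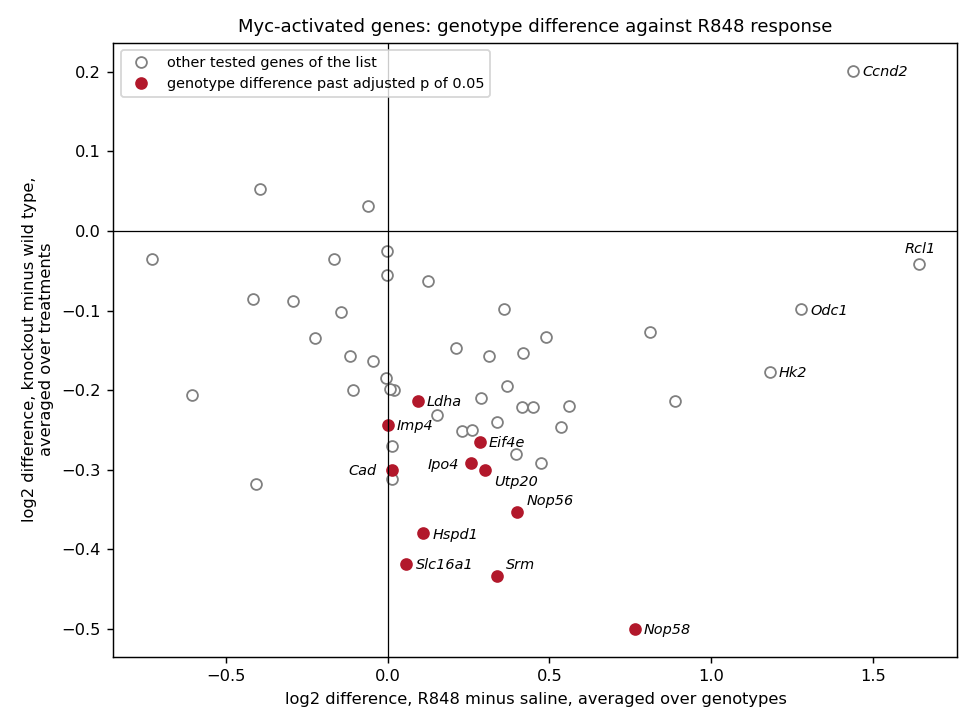
Genotype difference averaged over treatments (vertical, log2, knockout minus wild type) against the R848 response averaged over genotypes (horizontal, log2, R848 minus saline) for the 55 tested Myc-activated genes, with 1 point per gene; filled points passed an adjusted p of 0.05 for genotype. Of the 55 points 52 lie below 0 on the vertical axis, Nop58 lowest at -0.50, and the 4 genes with the largest R848 increase are not among the filled ones.

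The promoter windows of this list were searched for the E-box shown above for Mxd4, Mnt, Max and Mlx. CACGTG was present for 16 of the 49 tested list members with a window (32.7%). Among those lower in knockout cells it was present for 7 of the 10 with a window (70%). Over all 27025 genes with a window, tested or not, the share was 8.09%. Among cell cycle genes CACGTG was present for 1 of 18 with a window (5.56%). The 10 genes were picked by their call in these data, from a list of genes known to be activated by Myc. Whether Myc acts at these sites was not tested.

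Cell cycle genes were read as a second process tied to growth. Averaged over genotypes, 20 of 20 tested members were lower with R848, where 30.7% of all tested genes were, with a median of -1.05, led by the replicative helicase subunits Mcm6 and Mcm2 (-1.55 each), Mcm4 (-1.54) and Mcm7 (-1.53). By genotype 1 of 20 was lower in knockout cells averaged over treatments (Mcm3, -0.45, adjusted p = 0.0451) and 0 higher, where 1.01% and 0.774% of all genes were, with a median of -0.31. That count was 3 after median centring, 7 with array weights, 6 with the replicate number as a block, and 0 with no filter, after cyclic loess or with correlated pairs. It was 4 without wild-type saline replicate 1 or knockout R848 replicate 3, 7 without knockout saline replicate 3, and 0 without any other single array. The list mean was 6.41, 6.19 and 6.53 in knockout cells with R848, against 6.50, 6.75 and 6.70 in wild-type cells with R848, and 7.40, 7.19 and 7.68 in knockout cells with saline, against 7.42, 7.83 and 7.91 in wild-type cells with saline. The part of cell cycle genes in the lower Myc and Myc-activated genes of knockout cells was not tested.

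Partners of Mga in its Polycomb complex were read next to it. Of 9 tested, 5 were lower and 1 higher with R848 averaged over genotypes, where 30.7% of all genes were lower and 19.3% higher, and the median was -0.37. E2f6, the E2F-family repressor of the complex, fell by 1.20 and the chromodomain protein gene Cbx3 by 0.74 on the log2 scale. Yaf2 fell by 0.66 and Pcgf6, the subunit that defines the complex, by 0.41. Pcgf6 lay near the dim limit of 4.31 to 4.35. It averaged 4.43 with R848 and 4.88 with saline in knockout cells, and 4.45 and 4.81 in wild-type cells. By genotype 0 of 9 passed averaged over treatments, where 5 had an unadjusted limma p under 0.05 and the median was -0.16. Such a p was found for 16.1% of all tested genes in that comparison.

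Of 15 tested SIN3 and NCoR components, the corepressors that Mxd proteins recruit, 4 were higher and 6 lower with R848 averaged over genotypes, 10 of 15 where 50% of all genes passed. Sap30, a SIN3 complex subunit, rose by 1.21 and the deacetylase gene Hdac2 by 0.42, while the scaffold Sin3a (-0.46) and the histone-binding subunit Rbbp7 (-0.40) were lower. Of 16 tested Myc coactivators, 3 were higher and 4 lower, where 19.3% of all genes were higher and 30.7% lower, so the count is near the background. Among them were the elongation factor Paf1 at 1.29, the acetyltransferases Kat2a and Ep300 at -0.45 and -0.35, and Trrap, the scaffold of Myc-bound acetyltransferase complexes, at -0.36. By genotype averaged over treatments 0 of 15 corepressors and 0 of 16 coactivators passed, with 5 and 4 at an unadjusted limma p under 0.05. Such a p was found for 16.1% of all tested genes. The helicases Ruvbl1 (-0.27, adjusted p = 0.0649) and Ruvbl2 (-0.26, adjusted p = 0.11) had the largest differences among the coactivators.

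Of 12 tested genes that control turnover of Myc protein, 6 were lower and 3 higher with R848 averaged over genotypes, against 30.7% and 19.3% of all genes. Skp2 (-1.44) and Fbxw7 (-0.44), both substrate receptors of ubiquitin ligases that act on Myc, and the mitotic kinases Plk1 (-0.83) and Aurka (-0.71), which also move with the cell cycle, were lower. By genotype averaged over treatments 0 of 12 passed, with 1 at an unadjusted limma p under 0.05, against 16.1% of all tested genes. Of 6 tested genes repressed by Myc, 4 were higher with R848 and 0 lower, against 19.3% and 30.7% of all genes. The 4 were Ndrg1 (0.99), the cyclin-dependent kinase inhibitors Cdkn1a (0.57) and Cdkn2b (0.23), and Pdgfrb (0.43). By genotype averaged over treatments 0 of 6 passed, with 1 at an unadjusted limma p under 0.05, against 16.1% of all tested genes.

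Target genes of Mlx and its Mondo partners split under R848, with 2 of 7 higher and 3 lower averaged over genotypes, against 19.3% and 30.7% of all genes. Txnip, the thioredoxin-interacting protein and best known Mondo target, fell by 1.73 and Klf10 by 1.48 on the log2 scale, whereas Arrdc4, an arrestin relative of Txnip, rose by 1.05. By genotype 1 of 7 passed, where 1.78% of all genes did, the fatty acid elongase Elovl6, which differed by -0.50 (adjusted p = 0.0204), lower in knockout cells. That count was 0 without knockout saline replicate 2 and 2 with the replicate number as a block. Of the network genes outside the 10, Mlxipl was too dim to test, and Mlxip and Mycn did not pass with R848 (-0.18, adjusted p = 0.287, and 0.05, adjusted p = 0.568) or by genotype (-0.08 and 0.05, adjusted p = 0.816 and 0.754).

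Genes most like a member were found by the root mean square difference from it over the 12 arrays, after each gene's own mean was subtracted. Closest to Myc among 14078 genes were Dis3, a catalytic subunit of the RNA exosome (0.11 log2 units), Ufsp1 (0.12) and Gpatch4 (0.12), which differed between knockout and wild-type cells by -0.32, -0.25 and -0.34 averaged over treatments. Closest to Mxd1 were Ifnar1, a chain of the type I interferon receptor (0.08), Flvcr2 (0.09) and Tax1bp1, an autophagy adaptor (0.09). Closest to Mxd4 were Cnr2, a cannabinoid receptor (0.17), the sialyltransferase St6gal1 (0.18) and Arhgap18 (0.18). These last 3 genes changed with R848 by -1.64, -1.90 and -2.02 averaged over genotypes. All these neighbours were chosen for likeness on the same arrays, so that their differences resemble the member's follows from the choice.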

How the data were processed

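Total RNA of 12 samples was hybridised to Affymetrix Mouse Gene 2.1 ST arrays, 3 per group. The deposited values are log2 intensities made by the authors with Affymetrix Expression Console and RMA, per the submitters' processing notes, with versions not given in the sources used here. They were used as deposited, and 0 value columns were left out. Of 34472 rows, 23521 had 1 gene symbol, 1814 several and 9137 none. Rows with 1 symbol were used, the row with the highest mean for each gene. A gene was tested if it exceeded its array's 40th percentile on at least 3 arrays.

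One limma model (limma 3.58.1, R 4.3.3) of group means over all 12 arrays gave every contrast, with Benjamini-Hochberg adjustment over the 14079 tested genes and a threshold of 0.05. The script was tested on simulated data. Depth has no counterpart on arrays, whose number limits the precision. The members, lists and tests were chosen with earlier results of these data known. Named were all members, up to 4 genes of each list by R848 change and up to 2 by genotype difference, and the 3 nearest genes to Myc, Mxd1 and Mxd4.

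Replicate numbers come from the titles, which do not say what they share. Deviations of same-numbered knockout arrays with R848 and saline correlated at 0.27, 0.17 and 0.28, so these were taken as paired from the data. The main model does not carry this pairing and treats all arrays as independent. Its p-values for genotype averaged over treatments may therefore be too small. In the limma fit with correlated pairs, Myc (adjusted p = 0.0717) and Rasgef1b (0.054) did not pass in that comparison. Wild-type arrays gave 0.25, -0.06 and 0.23, knockout and wild-type arrays 0.33, -0.00 and 0.10 with R848 and 0.12, -0.12 and 0.14 with saline. Alternatives changed the spread (a trend in intensity with robust fitting, array weights), the filter (none, or the 60th percentile), the scaling (median centring, cyclic loess) and the design (a block for the replicate number, correlated pairs, only the arrays compared). The lowest row per gene was tried too, as was dropping single arrays. Promoter windows are RefSeq's, GRCm38.p6.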

Additional observations from a re-analysis of the deposited data

How the results depend on the processing

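The number of members called under R848 stayed between 5 and 8 in all 3 R848 comparisons over all alternatives, and it was 0 in each treatment's genotype comparison and in the interaction. Averaged over treatments, the genotype count of 1 became 0 with correlated pairs and lay between 0 and 2 when single arrays were left out. The Rasgef1b difference was -0.68 with an intensity trend and robust spread and -0.68 with correlated pairs, where its call ended, and between -0.76 and -0.55 without single arrays. With the lowest row of each gene, Mxi1 changed by 0.037 with R848 in knockout cells in place of -0.71, and by -0.12 averaged over genotypes (adjusted p = 0.157). Averaged over genotypes, Myc passed for R848 after cyclic loess (0.23, adjusted p = 0.0392) and without knockout R848 replicate 2 (0.24, 0.0296), and Mxd3 without knockout saline replicate 1 (-0.20, 0.0439). With the replicate number as a block over all groups, no call of a member changed, and Myc differed by -0.40 between genotypes (adjusted p = 0.0251). That block also ties same-numbered knockout and wild-type arrays, which were not taken as paired. Correlated pairs within each genotype ended the Myc call (adjusted p = 0.0717). The block gave 15 lower Myc-activated genes in place of 11. Of 1647 values of members and Rasgef1b, 41 lost and 6 gained a call, 1 called value reversed, and 50 uncalled values changed sign, from values of at most 0.12 in size. For all these, the cause was not tested beyond the change each alternative makes. Mycl and Mxd3 lay near background on many arrays, which limits what their differences can show.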
